A study of Rattus norvegicus with 6 samples.

Results

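The genes described here are LOC103689940, annotated as a pancreatic alpha-amylase-like gene, and LOC103690354, annotated as the beta-type pancreatic ribonuclease of the rat. They were chosen by name, 2 genes of the 34001 in a table of transcript levels from rat pancreas, and are set against Ctrb1, which encodes chymotrypsinogen B1, a protease precursor made by the same cells. RNA came from 6 Sprague-Dawley rats, an outbred laboratory strain, with 2 rats in each of 3 groups, and the labels give neither age nor sex. Rats of the TP+hucMSC-Exs group had traumatic pancreatitis (TP) and received exosomes from human umbilical cord mesenchymal stem cells. Exosomes are small membrane vesicles that cells shed, and the dose, given into a tail vein, was 10 μg for each 100 g of rat. The TP group had the injury and 1 ml of saline by the same route. The injury was a crush of the exposed gland by an impactor set to 3 cm2 and 10 kg. In the control group the abdomen was opened, the gland was turned with swabs without a crush, and 1 ml of saline was given. Tissue was taken 24 h after the procedure in all groups. Whole tissue was sequenced, so each library is a mixture of cell types, and the vesicles are human while the hosts are rats.

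Acinar cells of the pancreas make digestive enzymes and pack them into granules that are emptied into the duct. Pancreatic alpha-amylase is secreted in active form and cleaves starch into short sugars, and its appearance in blood is a routine clinical sign of pancreatitis. Pancreatic ribonuclease digests dietary RNA and is a small, stable secreted protein. Chymotrypsinogen, by contrast, is an inactive precursor that trypsin activates in the gut. In rodents the transcription factor complex PTF1, built around Ptf1a and Rbpjl, drives acinar enzyme genes by binding an E-box and a nearby TC-rich box.

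The promoters of the amylase gene and of Ctrb1 are shown because the comparison rests on the ratio between both transcripts, which the same cells make. They are the 250 bases before the annotated start, read on the transcribed strand, from RefSeq on the rat build GRCr8, where 1 of the 2 genes described was matched. Capitals mark the E-boxes CAGCTG and CACCTG, the TC-rich letters TTTTCC and the TATA letters TATAAA, all searched on both strands.
LOC103689940 (chr2:204041924-204042173, minus strand): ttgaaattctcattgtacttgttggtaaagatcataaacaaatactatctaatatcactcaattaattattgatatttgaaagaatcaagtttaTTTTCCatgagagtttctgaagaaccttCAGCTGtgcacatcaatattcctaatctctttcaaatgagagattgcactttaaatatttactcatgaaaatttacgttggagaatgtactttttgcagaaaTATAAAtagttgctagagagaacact
Ctrb1 (chr19:56566979-56567228, minus strand): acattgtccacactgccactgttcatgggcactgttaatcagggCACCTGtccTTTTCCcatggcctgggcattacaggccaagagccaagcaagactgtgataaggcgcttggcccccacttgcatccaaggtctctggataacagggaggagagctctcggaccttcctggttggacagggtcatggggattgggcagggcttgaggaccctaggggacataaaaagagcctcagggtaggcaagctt

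Counted back from the base before the start, the amylase promoter held TTTTCC at bases -156 to -151, CAGCTG at bases -128 to -123 and TATAAA at bases -26 to -21. The Ctrb1 promoter held CACCTG at bases -206 to -201 and TTTTCC at bases -197 to -192, and TATAAA was not in its window. No marked motif overlapped another. Of 33469 promoters of the same length in that table, 25.8% held CAGCTG or CACCTG, 21.6% held TTTTCC, 12.9% held TATAAA and 4.8% held TTTTCC together with one of the E-boxes. The letters were picked after the sequences had been read, and a match of this kind describes the letters only. RefSeq places LOC103689940 on chromosome 2 between Amy2a3, another pancreatic amylase gene, and Amy1, the salivary-type amylase gene. The promoter of Amy2a3 matched that of LOC103689940 at 248 of 249 aligned bases. Amy2a3 has no row of its own name in the table analysed, so reads of near-identical amylase copies may stand under LOC103689940, and how the counting divided them was not given in the sources used here.

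Levels are TPM, a length-corrected share of transcripts that adds up to 1000000 in each library. Depth was unknown, because such values do not keep it, and no counting error is attached to them. The pancreatic label fits the markers, since 21 acinar digestive enzymes other than the 2 genes described summed to 59.1% and 54.4% of all TPM in TP+hucMSC-Exs libraries, to 67.4% and 18.2% in TP libraries, and to 75.0% and 71.9% in control libraries. TP replicate 2 stood apart. Its median gene was 3.00 log2 units above the control mean, against 0.00 in TP replicate 1, and 13629 genes reached 1 TPM in it, against 6498 in TP replicate 1. The 10 adipocyte markers in the table summed to 10133 TPM in TP replicate 2 and to between 19.9 and 46.5 TPM in the other libraries, where up to 4 of them, Lep and Plin1 among these, were at 0. The 11 macrophage markers summed to 434 and 795 TPM in TP+hucMSC-Exs libraries, to 67.5 and 4984 TPM in TP libraries, and to 24.7 and 161 TPM in control libraries. The 8 fibroblast markers followed with 195 and 215 TPM, 83.5 and 5130 TPM, and 32.1 and 78.8 TPM in the same groups. None of the macrophage or fibroblast markers was at 0 in any library. In tissue of this kind fewer acinar cells and less enzyme RNA per acinar cell cannot be told apart, and the part of these markers in the TPM differences was not tested.

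The amylase gene was among the most abundant transcripts in every library. LOC103689940 (ENSRNOG00000055613, 1527 bases) stood at 42774 and 34646 TPM in TP+hucMSC-Exs pancreas, at 77133 and 18271 TPM in TP pancreas, and at 58866 and 55919 TPM in control pancreas. Both exosome libraries lay below both controls, while the TP libraries lay on either side of all others. The gene ranked 3 or 4 of all genes in each library and took between 1.83% and 7.71% of all TPM.

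The ribonuclease gene was less abundant and changed rank more. LOC103690354 (ENSRNOG00000053633, 459 bases) stood at 13829 and 12256 TPM in TP+hucMSC-Exs pancreas, at 22964 and 6726 TPM in TP pancreas, and at 26277 and 24109.8 TPM in control pancreas. The control libraries were the highest, with no overlap with either injured group. Its rank ran from 10 to 16. Ctrb1 stood at 178569 and 170734 TPM in TP+hucMSC-Exs pancreas, at 176265 and 43276 TPM in TP pancreas, and at 172127 and 156284 TPM in control pancreas. Outside TP replicate 2, Ctrb1 thus kept a narrow range over all groups, unlike the genes described.

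**Figure D1:**
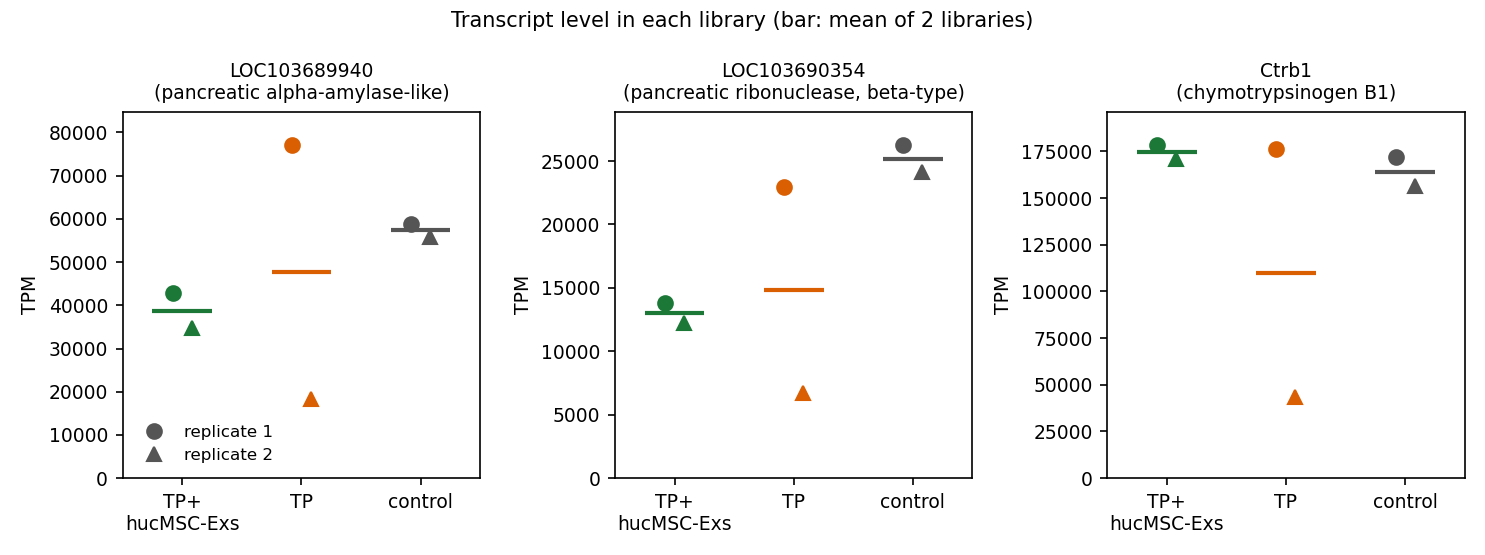
TPM of LOC103689940, LOC103690354 and Ctrb1 (y axes, from 0, different scales) in each library of the 3 groups (x axes), with circles for replicate 1, triangles for replicate 2 and bars for the mean of 2 libraries. Amylase TPM of the TP+hucMSC-Exs libraries (42774 and 34646) lie below those of the control libraries (58866 and 55919), and TP replicate 2 is the lowest library in each panel.

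On TPM alone, no difference of either gene passed the test. Group means of LOC103689940 were 38710.2 ± 5747 TPM in TP+hucMSC-Exs pancreas, 47702 ± 41622 TPM in TP pancreas and 57392 ± 2084 TPM in control pancreas (SD, n = 2 each). For LOC103690354 they were 13042 ± 1112 TPM in TP+hucMSC-Exs pancreas, 14845 ± 11482 TPM in TP pancreas and 25193 ± 1532 TPM in control pancreas (SD, n = 2 each). Changes were tested with limma on log2(TPM + 0.5), in 1 fit over the 6 libraries and 11477 genes with a mean of at least 1 TPM, with Benjamini-Hochberg adjustment and a threshold of 0.05.

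For TP against control, the log2 fold change was -0.61 (SE 0.515, adjusted p = 0.555, limma) for the amylase gene and -1.02 (SE 0.617, adjusted p = 0.555) for the ribonuclease gene. For TP+hucMSC-Exs against TP, it was 0.04 (SE 0.515, adjusted p = 1.00, limma) and 0.07 (SE 0.617, adjusted p = 1.00) for the same genes. For TP+hucMSC-Exs against control, it was -0.58 (SE 0.515, adjusted p = 0.800, limma) and -0.95 (SE 0.617, adjusted p = 0.800). In these comparisons limma called 0 of the 2 genes, against a background of 0.0523%, 0.0697% and 0.209% of all genes tested, in the order given. Of all genes, 466, 152 and 338 had an unadjusted p below 0.05, and neither of the 2 was among them. The log2 fold change of the median gene was 1.50, -0.38 and 1.09, so relative to the median gene both stood lower than control in both injured groups. For the TP group this rested on TP replicate 2, where the median gene was 3.00 log2 units above the control mean, against 0.00 in TP replicate 1. With TP replicate 2 left out, the change against control was 0.43 for amylase and -0.13 for ribonuclease. Under median-of-ratios scaling, which sets the median gene near 0, the amylase change was -2.35 in TP against control and -2.02 in TP+hucMSC-Exs against control, and the ribonuclease change -2.75 and -2.40, none called by limma. The 3 comparisons share libraries and are not independent.

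The spread between the TP libraries enters every one of these p-values, since 1 variance was estimated over the 3 groups. Fitted on the 4 libraries of the TP+hucMSC-Exs and control groups alone, the ribonuclease gene, at the same log2 fold change of -0.95, passed the threshold (limma, adjusted p = 0.0249), as did 6056 of the 11477 genes. The amylase gene did not pass in that fit (limma, adjusted p = 0.0920). TPM of both genes were lower without overlap in TP+hucMSC-Exs than in control libraries, as for 1.63% of the genes tested. LOC103690354 was also lower without overlap in TP than in control libraries, as for 1.09% of the genes tested. Between TP+hucMSC-Exs and TP both overlapped, where TPM were lower without overlap for 1.62% of genes tested and higher for 5.09%. With TP replicate 1 left out, the log2 fold change of TP replicate 2 against control was -1.65 for amylase and -1.90 for ribonuclease. The median gene of that library went the other way, at 3.00 log2 units above the control mean. With TP replicate 2 left out, the change of TP replicate 1 against control was 0.43 for amylase (limma, adjusted p = 1.00) and -0.13 for ribonuclease.

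The ratio of a transcript to Ctrb1 within a library does not depend on how that library was scaled, and on this measure the TP libraries were close to each other for amylase. LOC103689940 stood at 24.0% and 20.3% of Ctrb1 TPM in TP+hucMSC-Exs pancreas, at 43.8% and 42.2% in TP pancreas, and at 34.2% and 35.8% in control pancreas. The groups did not overlap in any pair, and the order was TP highest, control next and TP+hucMSC-Exs lowest. Group means were 22.1% ± 2.59 for TP+hucMSC-Exs, 43.0% ± 1.09 for TP and 35.0% ± 1.12 for control (SD, n = 2 each).

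On the log2 scale the amylase ratio differed by -0.96 in TP+hucMSC-Exs against TP (SE 0.122), a 0.513-fold level. The difference was -0.67 in TP+hucMSC-Exs against control (SE 0.124), a 0.630-fold level. In TP against control it was 0.30 (SE 0.0416), a 1.23-fold level. Each difference was larger than the spread between replicates, but an exact two-sided permutation test over 2 libraries against 2 cannot go below p = 0.33, and each stood at that value. Over the 9 ratio tests made here the Benjamini-Hochberg adjusted p of these was 0.429 (exact permutation test). Ratios to Ctrb1 were lower without overlap for 2.52% of 11476 genes in TP+hucMSC-Exs against TP and for 1.82% in TP+hucMSC-Exs against control. They were higher without overlap for 16.1% of genes in TP against control.

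The ribonuclease ratio was also lowest in the exosome group, but did not separate TP from control. LOC103690354 stood at 7.74% and 7.18% of Ctrb1 TPM in TP+hucMSC-Exs pancreas, at 13.0% and 15.5% in TP pancreas, and at 15.3% and 15.4% in control pancreas. The control values fell inside the TP range, and both exosome libraries lay well below either. Group means were 7.46% ± 0.400 for TP+hucMSC-Exs, 14.3% ± 1.78 for TP and 15.3% ± 0.114 for control (SD, n = 2 each).

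On the log2 scale the ribonuclease ratio differed by -0.93 in TP+hucMSC-Exs against TP (SE 0.139), a 0.524-fold level, with an exact permutation p = 0.33. The difference was -1.04 in TP+hucMSC-Exs against control (SE 0.0553), a 0.486-fold level, with the same exact p. Between TP and control it differed by -0.11 (SE 0.128, exact permutation p = 1.00). The 9 duct cell markers in the table summed to 840 and 1098 TPM in TP+hucMSC-Exs, 117 and 631 TPM in TP, and 77.1 and 82.1 TPM in control libraries. Of these sums, Krt8 made up 412 and 519 TPM in TP+hucMSC-Exs libraries, and Spp1 558 TPM in TP replicate 2. Limma called 0 of the 7 tested in any comparison. In TP+hucMSC-Exs against control, TPM were higher without overlap for 86.9% of all genes tested. None of the 9 markers was at 0 in any library, and their part in the ratios was not tested.

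**Figure D2:**
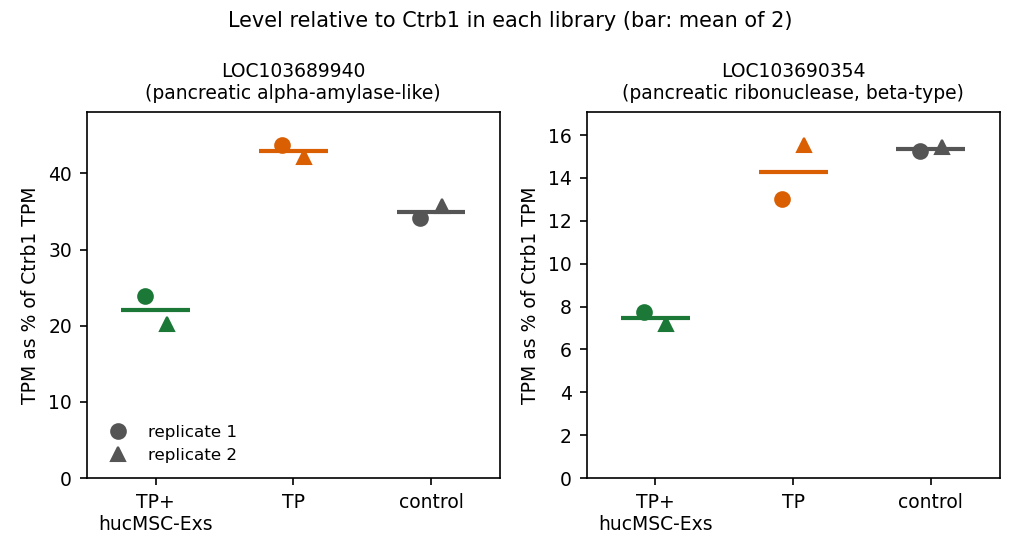
TPM of LOC103689940 and LOC103690354 as a percentage of Ctrb1 TPM in the same library (y axes, from 0), by group (x axes), with circles for replicate 1, triangles for replicate 2 and bars for the mean of 2 libraries. TP+hucMSC-Exs libraries are lowest in both panels, at 24.0% and 20.3% for amylase and at 7.74% and 7.18% for ribonuclease.

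A limma fit on TPM scaled to equal Ctrb1 in every library tested the same ratios with a variance shared over 11476 genes. The amylase gene passed for TP+hucMSC-Exs against TP, where it stood at -0.96 on the log2 scale with an SE of 0.191 (limma, adjusted p = 0.00562), and was the 1 gene called in that comparison, or 0.00871% of those tested. The ribonuclease gene, with a change of nearly the same size, did not pass (SE 0.310, adjusted p = 0.845, limma). Neither passed for TP+hucMSC-Exs against control (limma, adjusted p = 0.526 for amylase and 0.682 for ribonuclease) or for TP against control (adjusted p = 0.499 and 0.754), where 0.0349% of genes were called. The SE of the amylase gene rests on the variance trend at its abundance, where few genes lie. Without the trend its adjusted p was 0.810 (limma), and with TP replicate 2 left out it was 0.0877. With TP replicate 1 left out, both genes passed, at -0.94 for amylase (limma, adjusted p = 0.00563) and -1.06 for ribonuclease (adjusted p = 0.00347), as did 10984 of all genes.

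The genes described also moved against each other. LOC103690354 stood at 32.3% and 35.4% of LOC103689940 TPM in TP+hucMSC-Exs pancreas, at 29.8% and 36.8% in TP pancreas, and at 44.6% and 43.1% in control pancreas. All 4 injured libraries lay below both controls, and the injured groups overlapped. The share of all genes that separate in this way relative to LOC103689940 was not computed. On the log2 scale this ratio differed by -0.41 in TP against control (SE 0.155, exact permutation p = 0.33) and by -0.38 in TP+hucMSC-Exs against control (SE 0.0696, exact permutation p = 0.33). Between TP+hucMSC-Exs and TP it differed by 0.03 (SE 0.166, exact permutation p = 1.00), with leave-one-out values between -0.12 and 0.18.

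Other denominators changed part of this picture, and Ctrb1 itself took a larger share of the enzyme transcripts in injured than in control pancreas. Ctrb1 made up 30.2% and 31.4% of the summed TPM of the 21 enzymes in TP+hucMSC-Exs pancreas, 26.1% and 23.8% in TP pancreas, and 23.0% and 21.7% in control pancreas. Against that sum, the amylase ratio differed by -0.66 in TP+hucMSC-Exs against TP, by -0.20 in TP+hucMSC-Exs against control and by 0.46 in TP against control on the log2 scale, each without overlap. How many of all genes separate against that sum was not computed. Against Cpa1, the carboxypeptidase A1 gene, the same differences were -0.13, -0.04 and 0.09, and the groups overlapped in all 3. The amylase difference between groups was therefore present against Ctrb1 and the enzyme sum, and within the spread of replicates against Cpa1. The enzyme sum includes Ctrb1, so those denominators are not independent. Of 10745 genes, Cpa1 had the most constant ratio to amylase in these same libraries, which leaves little room for a difference against it.

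The ribonuclease gene was lowest in the exosome group against Ctrb1, the enzyme sum and Cpa1, though not against the amylase gene, where TP+hucMSC-Exs and TP overlapped. Against Cpa1 it stood at 73.6% and 74.8% in TP+hucMSC-Exs pancreas, at 78.9% and 80.1% in TP pancreas, and at 101% and 97.5% in control pancreas. The 3 groups did not overlap. The share of all genes that separate against Cpa1 or the enzyme sum was not computed. The ratio differed by -0.42 in TP+hucMSC-Exs against control (SE 0.0263), by -0.10 in TP+hucMSC-Exs against TP (SE 0.0154) and by -0.32 in TP against control (SE 0.0260) on the log2 scale, each with an exact permutation p = 0.33. Against the enzyme sum the difference was -0.58 in TP+hucMSC-Exs against control and -0.63 against TP, while TP and control overlapped. The difference from TP thus ran from -0.93 to -0.10 log2 units over Ctrb1, the enzyme sum and Cpa1.

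Most other digestive enzymes also stood lower relative to Ctrb1 in the exosome group, where Ctrb1 itself stood higher among the enzymes. TPM were also scaled to an equal sum of the enzymes, a sum that includes Ctrb1 itself. In that fit Ctrb1 changed by 0.46 against control and by 0.30 against TP (limma, adjusted p = 7.0e-08 and 0.0256). Its SE of 0.0693 came from the variance shared over genes at its abundance, where few genes lie, and not from the spread of its own replicates. That fit called 8 and 7 of 11477 genes in these comparisons. On unscaled TPM, Ctrb1 changed by 0.09 against control and by 1.00 against TP, and limma called neither. Of 19 other enzymes, 17 were lower without overlap in TP+hucMSC-Exs than in control, against 1.82% of all genes tested, with a median log2 ratio difference of -0.62. The others, the trypsinogen genes Try5 and LOC286960, were higher without overlap by 5.18 and 1.98, as were 83.5% of all genes tested. Ranked from the lowest of 21 genes with those described, ribonuclease stood at 4 and amylase at 10. Pnlip, pancreatic triglyceride lipase, and Cela1, elastase 1, stood lower still, at -1.43 and -1.23. Against TP, 16 of the 19 were lower without overlap, against 2.52% of all genes tested, with a median of -0.58, Prss3, LOC286960 and Try5 were higher, as were 1.97% of all genes tested, and amylase ranked 3 and ribonuclease 4 of 21, next to Cela1 at -1.16 and Pnlip at -1.12.

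The amylase gene differed from most enzymes in TP against control. Of the 19 others, 9 were lower without overlap, against 0.383% of all genes tested, and 4 were higher, against 16.1%. The remaining 6 overlapped, and the median was -0.08. Amylase ranked 20 of 21, behind Pnliprp1, pancreatic lipase-related protein 1, at 0.54. Pnliprp2 and Cpa1 stood next to it, at 0.29 and 0.21. At the other end was Prss3, a trypsinogen, at -1.79. Ribonuclease ranked 10. On TPM, limma called 0 of 20 enzymes in TP against control. It called Try5 and LOC286960 higher in TP+hucMSC-Exs against TP, as for 0.0523% of all genes tested, and Try5 higher against control, as for 0.209%. None of the enzymes was called lower, against 0.0174% of all genes tested in TP+hucMSC-Exs against TP.

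**Figure D3:**
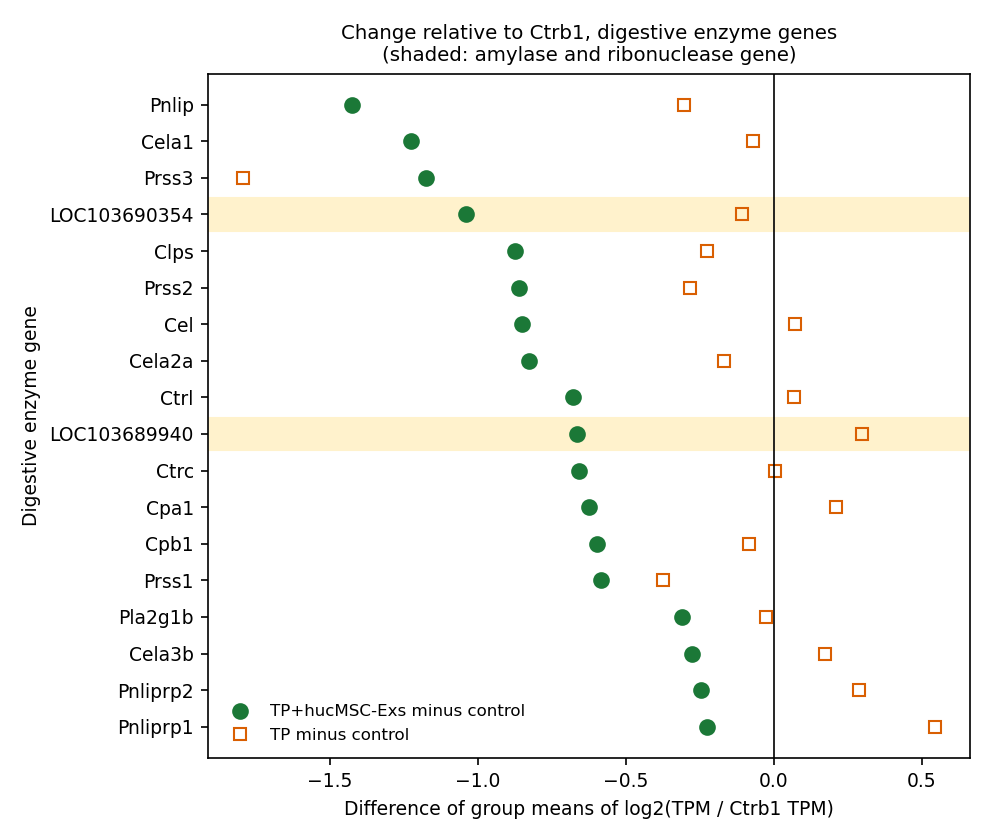
Difference between group means of log2(TPM / Ctrb1 TPM) (x axis) for 18 digestive enzyme genes (y axis), with filled circles for TP+hucMSC-Exs minus control and open squares for TP minus control; the genes described are shaded, and Try5 and LOC286960, at 5.18 and 1.98 for the circles, are left out to keep the scale, and 1 further gene is not shown. The amylase gene is at -0.67 and 0.30, and the ribonuclease gene at -1.04 and -0.11.

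By abundance, the enzymes just above LOC103690354 were Cela3b, Cpb1 and Cpa1, and Cela1 and Prss3 came just below. Their ratios to Ctrb1 in TP+hucMSC-Exs against control differed by -0.28, -0.60, -0.62, -1.23 and -1.18, so the change of -1.04 was exceeded by 2 of these neighbours. LOC103689940 came after Prss1, the main trypsinogen, and Ctrb1, and before Pla2g1b, a phospholipase A2, Clps, the lipase cofactor colipase, and Cela2a. Prss1 differed by -0.59, and the 3 below by -0.31, -0.88 and -0.83.

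Some transcripts kept a nearly fixed ratio to the genes described in all 6 libraries, whatever the group. Likeness was measured as the SD over 6 libraries of log2(gene TPM / TPM of the gene described), over 10745 genes, and is a description, since the libraries share the same enzyme fraction. The 5 genes most like LOC103689940 were Cpa1 (SD 0.113), Amy1a (0.121), Ctrl, a chymotrypsin-like protease (0.136), Tff2, a trefoil peptide (0.158), and Cel, bile salt-dependent lipase (0.163). Amy1a, the salivary-type amylase, stood between 0.0221% and 0.0284% of LOC103689940 in every library. Whether it holds misassigned reads of the abundant copy was not tested. Ctrb1 had an SD of 0.448 and rank 69, and the median of all genes was 2.18.

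LOC103690354 went together with its own paralogs more tightly than with any other transcript. Rnase1l1, a related pancreatic-type ribonuclease gene, stood at 444 and 398 TPM in TP+hucMSC-Exs pancreas, at 750.2 and 207 TPM in TP pancreas, and at 849 and 753 TPM in control pancreas. That was between 3.08% and 3.27% of LOC103690354 in every library (SD 0.0337). LOC103694853, annotated as a gamma-type pancreatic ribonuclease, stood at 925 and 879 TPM in TP+hucMSC-Exs pancreas, at 1721 and 467 TPM in TP pancreas, and at 1819 and 1675 TPM in control pancreas. That was between 6.69% and 7.50% of LOC103690354 (SD 0.0559). Nat8f1, an N-acetyltransferase family gene (0.0724), Cel (0.117) and Cela1 (0.122) followed, while Ctrb1 had an SD of 0.519 and rank 75. Ribonuclease paralogs are close copies, and the part of read division among them in this constancy was not tested. Without TP replicate 2, 4 of these first 5 genes stayed among the first 5, and 3 of 5 for amylase.

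**Figure D4:**
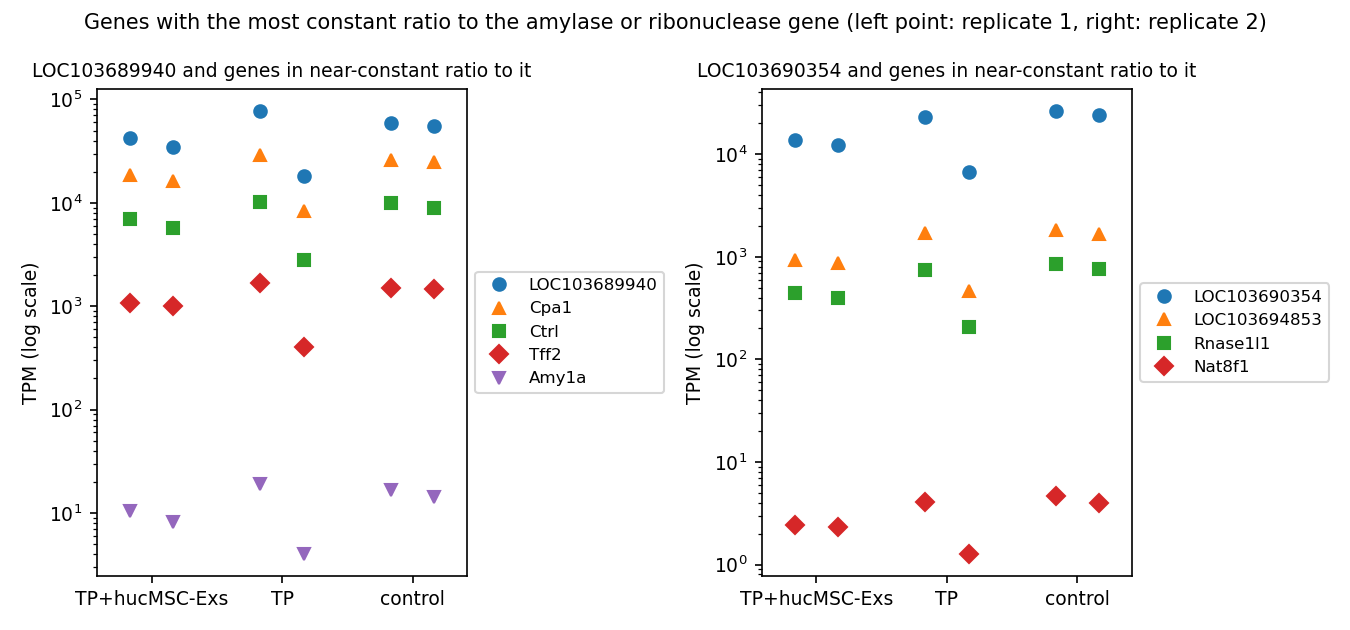
TPM on a log axis (y) in each library (x, left point replicate 1, right point replicate 2 of each group) for LOC103689940 with Cpa1, Ctrl, Tff2 and Amy1a, and for LOC103690354 with LOC103694853, Rnase1l1 and Nat8f1. The distance between symbols within a panel is nearly the same in all libraries, with Rnase1l1 between 3.08% and 3.27% of LOC103690354.

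The rest of the amylase list was low. Of 10 symbols of amylases and other carbohydrate-digesting enzymes, 6 were in the table and 3 passed the expression filter. Besides LOC103689940 these were Amy1a, at 10.5 and 8.12 TPM in TP+hucMSC-Exs, 18.9 and 4.04 TPM in TP, and 16.7 and 14.2 TPM in control libraries, and Gaa, lysosomal acid alpha-glucosidase. Gaa, which is not a secreted enzyme of the acinar granule, stood at 7.25 and 8.52 TPM in TP+hucMSC-Exs, 3.31 and 32.7 TPM in TP, and 2.86 and 3.27 TPM in control libraries. It was highest in TP replicate 2, where LOC103689940 was lowest. Limma called 0 of the 3 genes in any comparison.

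Members of the ribonuclease list outside the pancreatic type went both ways in TP replicate 2. Of its 19 entries in the table, 9 passed the expression filter, and limma called 0 in any comparison. Rnh1, the cytosolic inhibitor that binds pancreatic-type ribonucleases, stood at 106 and 109.9 TPM in TP+hucMSC-Exs, 81.7 and 167 TPM in TP, and 53.5 and 58.8 TPM in control libraries. Both injured groups were above control without overlap, as for 86.9% of genes tested in TP+hucMSC-Exs against control and 23.1% in TP against control. Rnaset2, a lysosomal ribonuclease, stood at 54.9 and 65.9 TPM in TP+hucMSC-Exs, 36.8 and 256 TPM in TP, and 29.7 and 40.2 TPM in control libraries. Rnase6, an antimicrobial ribonuclease of leukocytes, stood at 55.3 and 70.4 TPM, 59.2 and 18.6 TPM, and 30.7 and 39.8 TPM in the same groups. Unlike Rnaset2, it was lowest in TP replicate 2.

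Rnase4 has 2 entries that differ in TP replicate 2. The longer stood at 35.6 and 45.5 TPM in TP+hucMSC-Exs, 29.8 and 8.15 TPM in TP, and 33.6 and 31.4 TPM in control libraries, and the shorter at 15.2 and 22.6 TPM, 11.2 and 64.7 TPM, and 6.95 and 9.96 TPM. Dnase2, the lysosomal deoxyribonuclease, and Rnase2, an eosinophil-type ribonuclease, were highest in TP replicate 2, at 58.8 and 12.5 TPM. Rnase1 was listed at 0 in both TP+hucMSC-Exs libraries and in TP replicate 2, and at 0.78 TPM in TP replicate 1 and 0.65 and 0.57 TPM in control libraries. Rnase1l2 was listed at 0 in all libraries. Genes of this type are close copies, and whether reads of these stand under LOC103690354 was not tested.

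Regulators of acinar genes were less abundant. Of 10 acinar transcription factors, 9 passed the expression filter and limma called 0 in any comparison, with a median log2 fold change of 0.62 in TP+hucMSC-Exs against control, where the median of all genes was 1.09. Xbp1, which drives the secretory pathway, stood at 309 and 399 TPM in TP+hucMSC-Exs, 134 and 185 TPM in TP, and 141 and 159 TPM in control libraries. Bhlha15, which drives granule formation, stood at 37.1 and 28.9 TPM, 36.7 and 12.3 TPM, and 29.8 and 34.7 TPM in the same groups. Ptf1a and Rbpjl were named after their values had been seen. Ptf1a stood at 32.5 and 34.5 TPM in TP+hucMSC-Exs, 23.1 and 9.51 TPM in TP, and 13.4 and 16.2 TPM in control libraries. Rbpjl stood at 34.9 and 34.9 TPM, 38.1 and 15.9 TPM, and 25.5 and 26.1 TPM in the same groups. In TP+hucMSC-Exs against control, 8 of the 9 were higher without overlap, against 86.9% of genes tested, and Bhlha15 overlapped.

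The granule proteins differed among themselves. Limma called 0 of 8 in any comparison, with a median log2 fold change of 0.65 in TP+hucMSC-Exs against control. In that comparison 5 were higher without overlap, against 86.9% of genes tested, with log2 fold changes of 1.48 for Reg1a, 1.83 for Vamp8, 1.12 for Spink1, 1.04 for Rab3d and 0.23 for Gp2, named after their values had been seen. Cuzd1 overlapped. Sycn, the granule membrane protein syncollin, stood at 18635 and 18142 TPM in TP+hucMSC-Exs, 17816 and 5034 TPM in TP, and 20172 and 19155 TPM in control libraries. Zg16, a zymogen granule lectin, stood at 9811 and 8809.6 TPM, 14202 and 3748 TPM, and 12006 and 10872 TPM in the same groups. These were the 2 of 8 that were lower without overlap in TP+hucMSC-Exs than in control libraries, against 1.63% of genes tested, with log2 fold changes of -0.10 for Sycn and -0.30 for Zg16.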

How the data were processed

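An RNeasy kit and a SMARTer mRNA library kit were used, per the labels' protocols. A single table deposited by the authors holds TPM per gene for the 6 libraries, each summing to 1000000. The sources used here name neither aligner nor quantifier. Per the submitters' processing notes the builds were GRCm38 and mm10, which are mouse, while 32883 of 34001 genes carry rat Ensembl identifiers. Which annotation was used was not settled, so no coordinates of the table were used. The TP library columns carry a number that no label explains and were assigned by group and replicate number. Group means deposited by the authors equal the means of both library columns and were not tested.

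Values were log2-transformed with a pseudocount of 0.5, a scale that understates changes of low genes. Genes with a mean of at least 1 TPM were fitted with limma 3.58.1 in R 4.3.3 (3 groups, variance trend, 3 residual degrees of freedom). In this fit and the scaled fits over all 6 libraries, limma gave full weight to the variance shared over genes (infinite prior degrees of freedom). Each SE there thus came from variances pooled over genes, and not from the spread of that gene's own replicates. Ratios within a library were compared with exact permutation tests in Python 3.11.15. The limma script was run on simulated data with independent noise of the same spread for every gene. In the libraries analysed TP replicate 2 stood apart, so that run does not describe the error rates here. The series describes separate rats. No count model was used, since TPM are not counts.

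The genes described, the gene lists and the rule for named genes were chosen with earlier results of these data known. The rule took both genes, Ctrb1, the expressed amylase and ribonuclease lists, the 2 most abundant genes of other lists, the 5 nearest genes and the 3 enzymes next in abundance, of which 1 is not reported here by name. LOC103694853 was added to the ribonuclease genes after its values had been seen. Alternatives were pseudocounts of 0.1 and 1, no filter or a mean of at least 5 TPM, no variance trend, other scalings, a replicate block, fits of 2 groups alone, and each library left out. Scaling to the other enzymes, and Ctrb1 scaling without the trend or without a TP library, were chosen after seeing the data.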

Additional observations from a re-analysis of the deposited data

How the results depend on the processing

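Of 126 alternative values of TPM changes, 92 kept direction and side of the threshold, 24 changed direction, and 10 kept direction and newly passed. Counted among the 92 was amylase in TP against control under quantile normalization, at 0 and so without a direction. In all 14 newly passed, 4 of them with the direction changed, namely amylase in TP+hucMSC-Exs against TP when scaled to equal Ctrb1, also with TP replicate 1 left out, or to the other enzymes (limma, adjusted p = 0.00562, 0.00563 and 0.00591), and ribonuclease with Ctrb1 scaling and TP replicate 1 left out (0.00347). Rescaling without the enzymes and the genes described, and median-of-ratios scaling, gave larger negative values, none called. In TP against control these were -1.83 and -2.35 for amylase and -2.24 and -2.75 for ribonuclease, and in TP+hucMSC-Exs against control -1.64 and -2.02 for amylase and -2.01 and -2.40 for ribonuclease. Of 66 alternative ratio values, 62 kept direction and 4 did not. The cause of each shift was not tested. Leaving out a TP library, or fitting TP+hucMSC-Exs and control alone, takes the difference between the TP libraries out of the variance. The other fits of 2 groups alone kept both TP libraries. In them the amylase SE rose from 0.515 to 1.22 in TP against control and to 0.839 in TP+hucMSC-Exs against TP. With 2 libraries per group, a left-out library leaves a lone sample assumed to vary like the other groups. Depth is unknown.

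The amylase change in TP against control became 0.30 when scaled to equal Ctrb1, also with no variance trend, 0.27 and 0.32 with TP replicate 1 or 2 left out as well, and 0.46 when scaled to the other enzymes, and ranged from -1.65 to 0.43 over left-out libraries. Under quantile normalization it was 0. In TP+hucMSC-Exs against TP it became -0.27 under quantile normalization, -0.96 when scaled to equal Ctrb1, with or without the variance trend, -0.94 and -0.99 with TP replicate 1 or 2 left out as well, and -0.66 when scaled to the other enzymes, ranging from -1.003 to 1.08 over left-out libraries. Against control it was -0.67 and newly passed when Ctrb1 scaling was combined with leaving out TP replicate 1 (limma, adjusted p = 0.0493), and ranged from -0.73 to -0.42 over left-out libraries.

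The ribonuclease change in TP against control became 0.018 when Ctrb1 scaling was combined with leaving out TP replicate 1 and 0.050 when scaled to the other enzymes, and ranged from -1.90 to -0.13 over left-out libraries. In TP+hucMSC-Exs against TP it became -0.28 under quantile normalization, -0.93 when scaled to equal Ctrb1, with or without the trend, -1.06 and -0.81 with TP replicate 1 or 2 left out as well, and -0.63 when scaled to the other enzymes, ranging from -0.82 to 0.95 over left-out libraries. Without TP replicate 1 it was 0.95, and that of amylase 1.08, a comparison resting on TP replicate 2 alone. Against control it newly passed at -0.95 with only the groups compared or without either TP library, and at -1.04 when Ctrb1 scaling was combined with leaving out TP replicate 1 or 2, ranging from -1.04 to -0.86 over left-out libraries. Its ratio to Ctrb1 in TP against control became 0.050 with the enzyme sum as denominator and ranged from -0.24 to 0.018, and the ratio between the genes described in TP+hucMSC-Exs against TP ranged from -0.12 to 0.18.

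Genes called for TP against control, 6 in the report, were 14 with a pseudocount of 0.1, 2 with TPM rescaled without the enzymes and the genes described, 10 with the replicate block, and 11059 or 21 when Ctrb1 scaling was combined with leaving out TP replicate 1 or 2. They were 0 with no filter, median-of-ratios scaling, quantile normalization, only the groups compared, and Ctrb1 scaling with no trend (limma, with 160, 668, 642, 85 and 196 genes at an unadjusted p below 0.05). For TP+hucMSC-Exs against TP, 8 in the report, they were 2 with median-of-ratios scaling, 1 when scaled to equal Ctrb1, 22 with the replicate block, 1 with only the groups compared, and 10984 or 242 when Ctrb1 scaling was combined with leaving out TP replicate 1 or 2. They were 0 with no filter, rescaling without the enzymes, quantile normalization and Ctrb1 scaling with no trend (limma, with 315, 317, 983 and 57 at an unadjusted p below 0.05). For TP+hucMSC-Exs against control, 24 in the report, they were 12 with a pseudocount of 1, 5 with rescaling without the enzymes, 2 with median-of-ratios scaling, 6 when scaled to equal Ctrb1, 1 with that and no trend, 2377 or 2887 with that and TP replicate 1 or 2 left out, 8 when scaled to the other enzymes and 6056 with only the groups compared. They were 0 with no filter and quantile normalization (limma, with 368 and 1100 at an unadjusted p below 0.05). Over left-out libraries the counts ranged from 0 to 10706, from 0 to 9537 and from 1 to 6031.

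No label says that equal replicate numbers pair rats, and the correlations of their deviations from group means were 0.135 between TP+hucMSC-Exs and TP, 0.08 between TP+hucMSC-Exs and control and 0.279 between TP and control. With the replicate number as a block limma called 10, 22 and 35 genes in TP against control, TP+hucMSC-Exs against TP and TP+hucMSC-Exs against control. Neither gene described passed with that block (adjusted p between 0.517 and 1.00).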

Other observations

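A pair of entries without a gene name carry a best protein match to pancreatic alpha-amylase of Rattus rattus and stood outside all comparisons of the report. MSTRG.4253 was at 0.59 and 0.44 TPM in TP+hucMSC-Exs libraries, at 0 and 7.51 TPM in TP libraries, and at 0 and 0.09 TPM in control libraries. It was highest in TP replicate 2, the library in which LOC103689940 was lowest. MSTRG.9135 was at 2.22 and 1.59 TPM in TP+hucMSC-Exs libraries, at 1.28 and 0.68 TPM in TP libraries, and at 0.59 and 2.57 TPM in control libraries, with overlap between all groups. Ins2, an insulin gene of the islets, was named after its values had been seen, and stood at 1435 and 639 TPM in TP+hucMSC-Exs, 504 and 149 TPM in TP, and 1078 and 167 TPM in control libraries.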
